A study of Mus musculus with 36 samples.

Results

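The keratin family of the cystic mouse kidney was followed through 10 genes, Krt5, Krt7, Krt8, Krt14, Krt15, Krt17, Krt18, Krt19, Krt20 and Krt23, in 36 RNA-seq libraries of whole kidney. The genes were picked by symbol, without a cut on measured values but with earlier results of these data known. They come from 20454 gene symbols in the count table, 53 of which are keratins. Each of the 10 had 1 RefSeq transcript in the table, and that transcript was used. Krt7, Krt8, Krt18, Krt19, Krt20 and Krt23 were treated as the 6 simple keratins, and Krt5, Krt14, Krt15 and Krt17 as the 4 basal keratins.

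The mice were models of autosomal dominant polycystic kidney disease, in which loss of Pkd1 or Pkd2 turns renal tubules into fluid-filled cysts. KO mice were Pkd1f/f:HoxB7-Cre or Pkd2f/f:HoxB7-Cre, and WT mice were Pkd1f/f or Pkd2f/f without Cre, all of C57BL/6 background, so that KO and WT of a model carried the same floxed gene. Kidneys were taken on postnatal days 1, 3 and 7 (P1, P3, P7), with 3 KO and 3 WT libraries per model and day, which gives 12 groups. The study describes the WT mice as age-matched littermates, but the litter of each mouse is not given, and mice with Cre alone were not among the groups used here. HoxB7-Cre acts in the collecting duct, whereas the RNA came from the whole kidney, so cells without recombination contributed to every library.

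Keratins are the intermediate filament proteins of epithelia. A filament needs a type I keratin (here Krt14, Krt15, Krt17, Krt18, Krt19, Krt20 and Krt23) paired with a type II keratin (Krt5, Krt7 and Krt8). Krt8 and Krt18 are the basic pair of simple epithelia, and Krt7 and Krt19 join them in ducts, which in the kidney means the collecting duct and the lining of the renal pelvis. Krt20 is known from intestinal epithelium and the superficial cells of the urothelium. Krt5 and Krt14 pair in the basal cells of stratified epithelia and of the urothelium, Krt15 is found in basal and hair follicle stem cells, and Krt17 is known for its induction in wounded or stressed epithelium. Krt23 is less well described.

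The promoter windows of Krt7, Krt8 and Krt18 are shown because these transcripts moved together at P7 in both models, and that of Krt5 because it is the basal partner gene in the same keratin cluster. The windows run from 100 bases before to 20 bases after the start that RefSeq gives in GRCm38.p6, the assembly of mm10, and are written in the direction of transcription. The Krt7 window lies at chr15:101412303-101412422 on the plus strand, that of Krt8 at chr15:102004323-102004442 on the minus strand, that of Krt18 at chr15:102028116-102028235 on the plus strand and that of Krt5 at chr15:101712886-101713005 on the minus strand. Capitals mark matches to TATAAA (the TATA box), GGGCGG (a GC box), TGANTCA (an AP-1 type site) or GCCNNNGGC (an AP-2 type site), searched on both strands.

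Krt7: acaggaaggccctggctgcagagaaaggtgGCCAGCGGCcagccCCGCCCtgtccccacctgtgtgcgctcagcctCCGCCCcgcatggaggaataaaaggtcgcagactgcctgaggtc
Krt8: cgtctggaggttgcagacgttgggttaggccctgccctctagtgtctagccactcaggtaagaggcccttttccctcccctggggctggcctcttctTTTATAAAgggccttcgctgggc
Krt18: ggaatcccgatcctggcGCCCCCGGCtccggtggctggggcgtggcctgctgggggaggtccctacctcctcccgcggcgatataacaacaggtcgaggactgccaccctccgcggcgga
Krt5: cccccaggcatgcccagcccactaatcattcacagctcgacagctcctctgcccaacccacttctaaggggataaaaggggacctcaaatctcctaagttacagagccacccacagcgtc

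The Krt8 window held overlapping matches to TATAAA on both strands, a motif found in 6.1% of 32844 mouse promoter windows of this length. These matches run across the start that RefSeq gives and do not lie wholly before it. The Krt7 window held 2 matches to GGGCGG (26.7% of windows) and 1 site of GCCNNNGGC (8.0%), which reads the same on both strands. The Krt18 window held 1 site of GCCNNNGGC. The Krt5 window held none of the 4 motifs, and TGANTCA, present in 3.24% of windows, was in none of the 4 windows shown. A match is a stretch of letters and not a measured binding site, and a window without a match says nothing about the factor.

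The members lie in the 2 keratin clusters of the mouse genome (mm10). Krt7 (chr15:101412403-101427806), Krt5 (chr15:101707069-101712905), Krt8 (chr15:101996711-102004342) and Krt18 (chr15:102028216-102032026) are on chromosome 15, where Krt18 is the type I gene that sits beside the type II genes. Krt20 (chr11:99428385-99438153), Krt23 (chr11:99477973-99493120), Krt15 (chr11:100131759-100135949), Krt19 (chr11:100140810-100145926), Krt14 (chr11:100203162-100207510) and Krt17 (chr11:100256215-100261029) are on chromosome 11.

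Library totals ran from 7179152 to 15850818 counts with a median of 13143336. Proximal tubule transcripts marked every library as kidney, with at least 3677 counts of Lrp2 and 5310 of Slc34a1. Markers of the urothelium (Upk1a, Upk1b, Upk2, Upk3a, Upk3b, Snx31 and Psca), which lines the renal pelvis, were also present, with at least 6 of 7 detected per library, Upk2 at 0 in 3 libraries and a summed level from 15.9 to 725 CPM (counts scaled by the library total). Counts of 4 Y-linked genes split the libraries into 18 with 3926 to 5041 and 18 with 0 to 5, and the split was uneven between some groups. In the Pkd1 model at P7 all 3 KO libraries and 0 of 3 WT libraries held Y-linked counts, so genotype and sex cannot be told apart within that comparison. Of the deleted genes at P7, Pkd1 differed by 0.10 on the log2 scale in the Pkd1 model (SE 0.11, adjusted p = 0.556, edgeR) and Pkd2 fell by 0.29 in the Pkd2 model (SE 0.05, adjusted p = 0.0115), and as these counts include exons outside the floxed part they are a weak check of the labels.

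Levels between genes were compared as normalized counts per kb of transcript. In WT kidneys at P7 the order began with Krt8, Krt7, Krt18 and Krt19 in both models. Krt8 stood at 2496 ± 198 and Krt7 at 2439 ± 414 per kb in the Pkd1 model (SD, n = 3), and their ranges overlapped. Krt18 followed at 1373 ± 120 and Krt19 at 258 ± 164 per kb, each below the range of the gene before it. Krt23, at 32.7 ± 23.3 per kb, lay above Krt20, Krt14, Krt15, Krt5 and Krt17, whose neighbouring ranges all overlapped. The 4 basal keratins together made up between 0.24% and 1.64% of the summed member level in the 12 group means, so the kidney keratins measured here were almost wholly simple ones.

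Krt17 held a different place in that order in KO kidneys. It was last of the 10 in WT kidneys at P7 in both models, at 0.78 ± 0.68 per kb (Pkd1) and 1.47 ± 1.37 per kb (Pkd2) (SD, n = 3). In KO kidneys at P7 it was the fifth, at 76.7 ± 51.9 and 91.1 ± 16.1 per kb, and its range overlapped that of Krt23 in the Pkd1 model and lay above that of Krt20 in the Pkd2 model. Krt8, Krt7, Krt18 and Krt19 stayed the first 4 in the KO groups at P7, and the ranges of neighbours among Krt8, Krt7 and Krt18 overlapped in both models.

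In the Pkd1 model at P7 the main simple keratins and Krt17 were higher in KO than in WT kidneys. Krt7, Krt8, Krt18, Krt19 and Krt17 passed the test, 5 of 10 members, all upward, against 13.5% of 12524 transcripts in either direction and 6.32% upward (edgeR's quasi-likelihood test, Benjamini-Hochberg adjusted p under 0.05). Krt17 passed the low-count filter through KO libraries alone, so it adds no support to this count. Of the 6 simple keratins 4 were called. Krt18 and Krt19, both type I, had larger log2 differences than Krt8 and Krt7, both type II. These are bulk libraries, so more keratin-expressing cells and more RNA per cell cannot be told apart.

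Normalized counts of Krt8, the type II keratin of simple epithelia, were 4320, 4280 and 4918 in WT and 11446, 8860 and 7917 in KO kidneys of the Pkd1 model at P7. Its partner Krt18 had 1747, 2082 and 1936 in WT and 8985, 7732 and 5454 in KO. For both genes every KO library lay well above every WT library. In this comparison 6 of 10 members and 19.1% of 12524 transcripts had every KO library above every WT library. The log2 difference was 1.07 (SE 0.16, adjusted p = 0.00973, edgeR) for Krt8 and 1.95 (SE 0.19, adjusted p = 0.00252) for Krt18.

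Krt7, the ductal type II keratin, had 3177, 3946 and 4483 normalized counts in WT and 10635, 8380 and 6893 in KO kidneys of the Pkd1 model at P7. Krt19, a type I keratin without a tail domain, had 240, 619 and 213 in WT and 3101, 1909 and 1264 in KO. The groups did not overlap for either gene, although WT replicate 2 had more Krt19 than the other two WT libraries. The log2 difference was 1.17 (SE 0.19, adjusted p = 0.0123, edgeR) for Krt7 and 2.56 (SE 0.46, adjusted p = 0.0158) for Krt19.

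Krt20 and Krt23 did not pass the test in the Pkd1 model at P7. Krt20 had 14.4, 16.7 and 26.4 normalized counts in WT and 60.6, 33.5 and 37.1 in KO, a log2 difference of 1.20 (SE 0.41, adjusted p = 0.0837, edgeR). Every KO value of Krt20 lay above the WT values, but the levels were low. Krt23 had 50.7 ± 36.1 in WT and 74.4 ± 43.2 in KO (SD, n = 3), and the groups overlapped (log2 difference 0.56, adjusted p = 0.507).

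**Figure D1:**
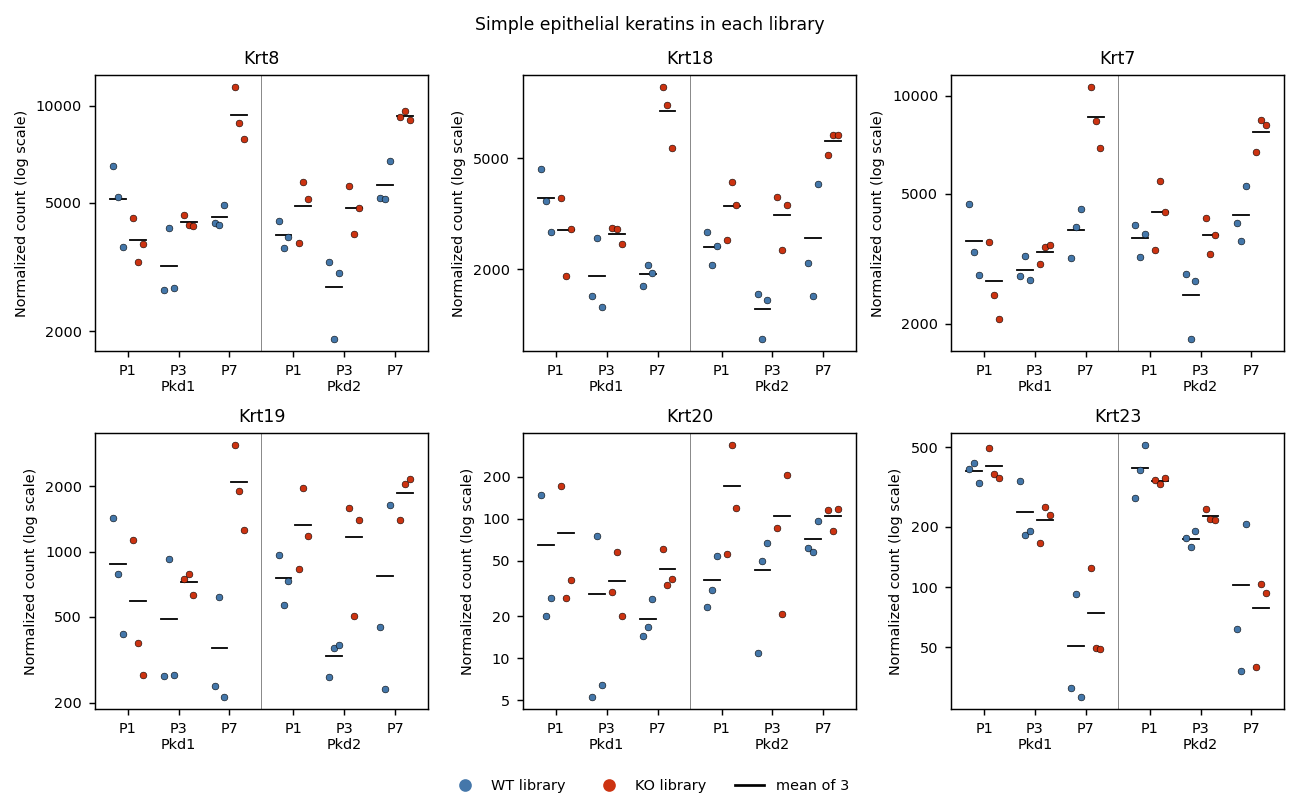
Normalized counts (log axis) of the 6 simple keratins in each of the 36 libraries by model and day, with a bar at the mean of 3. The KO libraries at P7 stood above all WT libraries of their day for Krt8, Krt18 and Krt7 in both models, and Krt23 was lower at P7 than at P1 in WT and KO.

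The Pkd1 calls at P7 have to be read with the Y-linked split. When the presence of Y-linked counts was a covariate in a fit of all 18 Pkd1 libraries, 0 of 10 members were called, and 6 transcripts were called in all. The log2 differences in that fit were 1.89 for Krt18 (adjusted p = 0.115), 1.10 for Krt8 (0.217), 0.98 for Krt7 (0.273), 2.32 for Krt19 (0.356) and 1.65 for Krt17 (0.973, SE 13.6). Among the Pkd1 groups only P1 WT mixed libraries with and without Y-linked counts, so this covariate rests on its replicate 2. The fit therefore cannot separate sex from genotype at P7. The sizes for Krt18, Krt8, Krt7 and Krt19 were near those without the covariate, with larger errors, and that of Krt17 could not be estimated. Without WT replicate 1 the calls fell to 2, Krt17 and Krt18. Krt7 and Krt8 were then at adjusted p = 0.0576 and 0.0529.

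In the Pkd2 model at P7 the same direction was seen, and Krt7, Krt8, Krt18 and Krt17 passed the test. These are 4 of 10 members, all upward, against 14.1% of 12628 transcripts in either direction and 7.89% upward. Again Krt17 passed the low-count filter through KO libraries alone and adds no support, and 3 of the 6 simple keratins were called. Here all 3 KO and 2 of 3 WT libraries held Y-linked counts, and with the covariate in a fit of the 18 Pkd2 libraries the same 4 were called and Krt19 joined them. In each Pkd2 WT group, however, the libraries without Y-linked counts held more urothelium markers than those with them. At P7 that library was replicate 3, with 442 CPM against 107 and 33.4, so this covariate was confounded with the marker level. Without WT replicate 1 the calls fell to 2, Krt8 and Krt17.

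Krt8 had 5191, 5140 and 6739 normalized counts in WT and 9222, 9671 and 9045 in KO kidneys of the Pkd2 model at P7. Krt7 had 4061, 3579 and 5283 in WT and 6710, 8437 and 8152 in KO. Both genes were higher in every KO library than in every WT library, as were 4 of 10 members and 19.2% of 12628 transcripts. The highest WT library was replicate 3 for each. The log2 difference was 0.71 (SE 0.11, adjusted p = 0.00600, edgeR) for Krt8 and 0.85 (SE 0.15, adjusted p = 0.0103) for Krt7.

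Krt18 had 2104, 1608 and 4052 normalized counts in WT and 5135, 6061 and 6079 in KO, a log2 difference of 1.15 (SE 0.30, adjusted p = 0.0393, edgeR). WT replicate 3 again stood above the other two WT libraries, and the call on Krt18 was lost in 5 of 6 fits that left out a library, all but the fit without that replicate (log2 difference 0.90 to 1.24 where it was lost). Krt19 had 447, 233 and 1645 in WT and 1393, 2044 and 2175 in KO, so WT replicate 3 reached into the KO range. Its log2 difference was 1.27 (SE 0.60, adjusted p = 0.203).

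The same WT replicate 3 held the most urothelium marker counts of its group, 442 CPM against 107 and 33.4 in the other two WT libraries, while the 3 KO libraries held 30.6 to 96.1. With the summed urothelium marker level as a covariate, an alternative chosen after the data were seen, Krt19 was called in the Pkd2 model at P7 with a log2 difference of 2.21 (SE 0.22, adjusted p = 2.8e-05, edgeR). Krt7, Krt8, Krt18 and Krt17 stayed called in that fit, which is not a check separate from the Y-linked covariate in this model. In the Pkd1 model at P7 the marker sum was 25.5 to 109 CPM in WT and 39.0 to 118 in KO, and the same 5 members were called with and without the covariate. The markers in this sum were unlike each other. Upk3a had 10, 242 and 1 counts in WT and 229, 14 and 1 in KO. Upk1a had 167, 369 and 150 in WT and 242, 123 and 193 in KO, so the sum does not stand for each marker.

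Krt20 and Krt23 were not called in the Pkd2 model at P7. Krt20 had 71.7 ± 20.9 normalized counts in WT and 105 ± 20.4 in KO (SD, n = 3), with a log2 difference of 0.55 (adjusted p = 0.199, edgeR). Krt23 had 102 ± 92.0 in WT and 79.1 ± 34.2 in KO, with a log2 difference of −0.37 (adjusted p = 0.744). Over the 6 simple keratins the median log2 difference at P7 was 1.18 (Pkd1) and 0.78 (Pkd2), beside 0.0014 and 0.00061 over all transcripts tested.

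**Figure D2:**
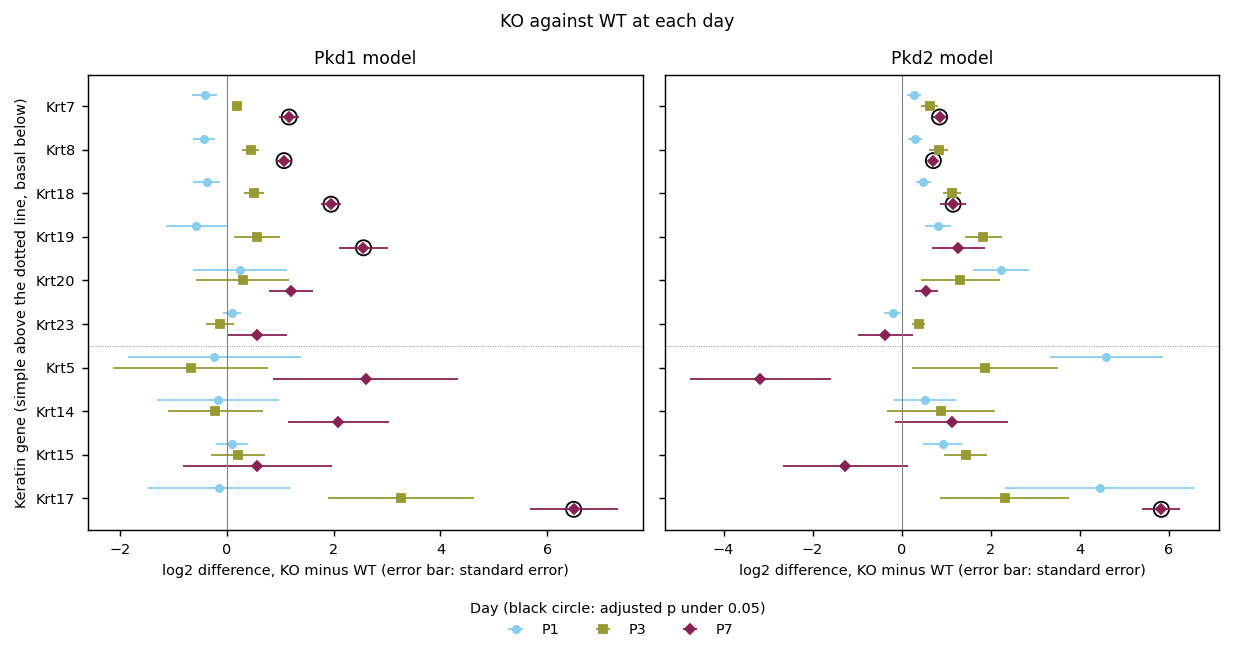
Log2 difference KO minus WT with its standard error for each keratin at P1, P3 and P7 in each model; black circles mark an adjusted p under 0.05. The calls are all at P7, and the error bars of Krt5 and Krt14 are wide at every day.

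Krt17 showed the largest log2 difference of the 10 members at P7 in both models. Its raw counts at P7 in the Pkd1 model were 0, 2 and 2 in WT and 204, 102 and 51 in KO. In the Pkd2 model they were 1, 5 and 1 in WT and 157, 139 and 109 in KO. Thus the transcript was close to undetected in each WT kidney and was read in every KO kidney. Scaled for library size, the summed counts differed 96.9-fold in the Pkd1 model (357 against 4 counts, 95% exact interval 37.5 to 358, counting error only) and 59.6-fold in the Pkd2 model (405 against 7 counts, 28.7 to 149).

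The log2 difference of Krt17 at P7 was 6.50 (SE 0.82, adjusted p = 0.00703, edgeR) in the Pkd1 model and 5.83 (SE 0.43, adjusted p = 0.000391) in the Pkd2 model. At these counts the value leans on the few WT reads, and Krt17 passed the low-count filter through its KO libraries, so its passing is no support. In KO kidneys of the Pkd1 model at P3 it had 18.8, 0.94 and 1.99 normalized counts, so replicate 1 alone stood apart, and the log2 difference was 3.27 (SE 1.37, adjusted p = 0.335). In the Pkd2 model at P3 the KO values were 0, 5.43 and 5.99, beside 0, 2.07 and 0 in WT.

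Krt5, Krt14 and Krt15, the other basal keratins, did not pass the test at any day in either model. At P7 the log2 differences in the Pkd1 model were 2.60 (SE 1.73, adjusted p = 0.327, edgeR) for Krt5, 2.09 (SE 0.94, adjusted p = 0.161) for Krt14 and 0.57 (SE 1.40, adjusted p = 0.804) for Krt15. In the Pkd2 model they were −3.18 for Krt5 (SE 1.58, adjusted p = 0.225), 1.12 for Krt14 (SE 1.27, adjusted p = 0.611) and −1.27 for Krt15 (SE 1.40, adjusted p = 0.598). Krt17 therefore was the only basal keratin called at P7 by this test.

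The spread of Krt5 between libraries of the same group was larger than most differences between groups. In the Pkd1 model its normalized counts at P1 were 242, 10.9 and 9.05 in WT and 224, 3.71 and 0 in KO, so a single library held most of the signal in each group. For Pkd2 mice at P1 they were 6.37, 5.57 and 13.6 in WT and 5.06, 484 and 128 in KO. At P7 in the Pkd2 model WT replicate 3 held 188 while the other two WT libraries held 5.12 and 0.

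Krt14, the partner of Krt5, ranged from 0 to 144 normalized counts over the 36 libraries, the highest in KO replicate 1 of the Pkd1 model at P7, where the other KO libraries held 9.14 and 36.2. Krt15 ranged from 0 to 93.2 and was lower at P3 than at P1 in the means of all 4 combinations of model and genotype, as in the Pkd1 WT groups with 39.4 ± 9.02 at P1 and 10.5 ± 6.27 at P3 (SD, n = 3). At P7 the Krt15 values scattered from 0 to 92.4 in WT and from 0 to 35.0 in KO.

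**Figure D3:**
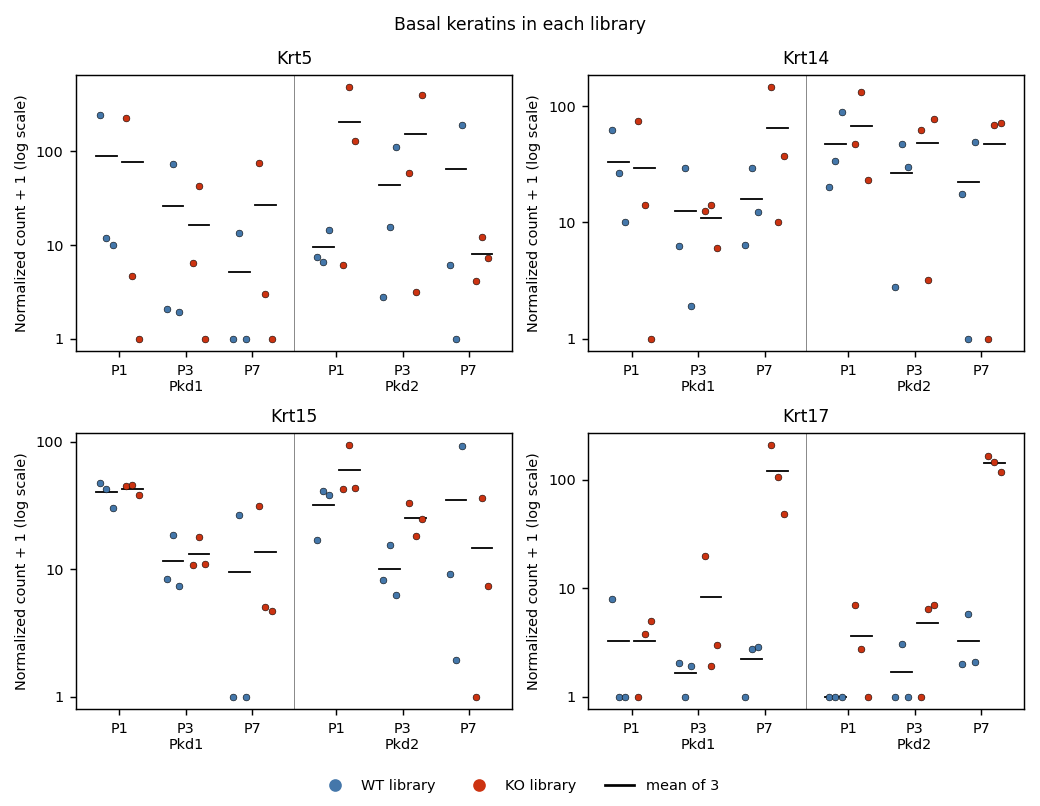
Normalized counts plus 1 (log axis) of the 4 basal keratins in each of the 36 libraries by model and day, with a bar at the mean of 3. Krt17 separates KO from WT at P7 in both models, whereas Krt5, Krt14 and Krt15 scatter within groups.

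Over all libraries the levels of Krt5, Krt14, Krt15, Krt20 and Krt19 moved most with the urothelium markers. Across the 36 libraries the log2 CPM of Krt5 went with the summed marker level with Pearson's r = 0.89 and Spearman's rho = 0.91 (permutation p = 1e-05 for each, the smallest that 100000 permutations can give, adjusted over 10 relations 2.5e-05 and 5e-05). The permutations here and below ran over all libraries without regard to group, so their p-values also take in differences between groups. Within models r was 0.93 over the 18 Pkd1 libraries and 0.85 over the 18 Pkd2 libraries, and without the 2 libraries farthest from the median marker level it was 0.87. After the group means were removed r was 0.92. The part that the renal pelvis lining taken with each kidney has in these levels was not tested.

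Krt14 followed the markers with r = 0.77 and rho = 0.77 (permutation p = 1e-05 for each, adjusted 2.5e-05 and 5e-05), with r = 0.78 in each model, 0.73 without the 2 farthest libraries and 0.86 after the group means were removed. For Krt20, the superficial cell keratin, r was 0.72 and rho 0.66 (permutation p = 1e-05 and 3e-05, adjusted 2.5e-05 and 7.5e-05), with 0.76 and 0.59 within models and 0.70 without the 2 libraries. For Krt15 r was 0.68 and rho 0.66 (permutation p = 1e-05 and 3e-05, adjusted 2.5e-05 and 7.5e-05), with 0.60 and 0.79 within models and 0.74 without those libraries.

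Krt19 among the 4 abundant simple keratins moved most with the markers, with r = 0.64 and rho = 0.61 (permutation p = 9e-05 and 0.00014, adjusted 0.00018 and 0.00028), 0.66 and 0.59 within models, 0.58 without the 2 farthest libraries and 0.95 after the group means were removed. Krt23 had r = 0.47 and rho = 0.40 (permutation p = 0.00363 and 0.016, adjusted 0.00605 and 0.0267), with 0.41 and 0.61 within models and 0.54 without the 2 libraries. Krt18 (r = 0.30, rho = 0.39, permutation p = 0.0731 and 0.0209, adjusted 0.104 and 0.0299), Krt7 (r = 0.18, rho = 0.32, permutation p = 0.291 and 0.0617, adjusted 0.318 and 0.0771) and Krt8 (r = 0.17, rho = 0.27, permutation p = 0.318 and 0.114, adjusted 0.318 and 0.127) had lower values across all libraries, but after the group means were removed r was 0.76 for Krt18, 0.69 for Krt7 and 0.60 for Krt8, beside 0.78 for Krt20 and 0.63 for Krt15. Krt17 had r = −0.20 and rho = −0.22 (permutation p = 0.238 and 0.204, adjusted 0.297 and 0.204). Its counts were low outside the KO libraries at P7, which limits what this relation can show.

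**Figure D4:**
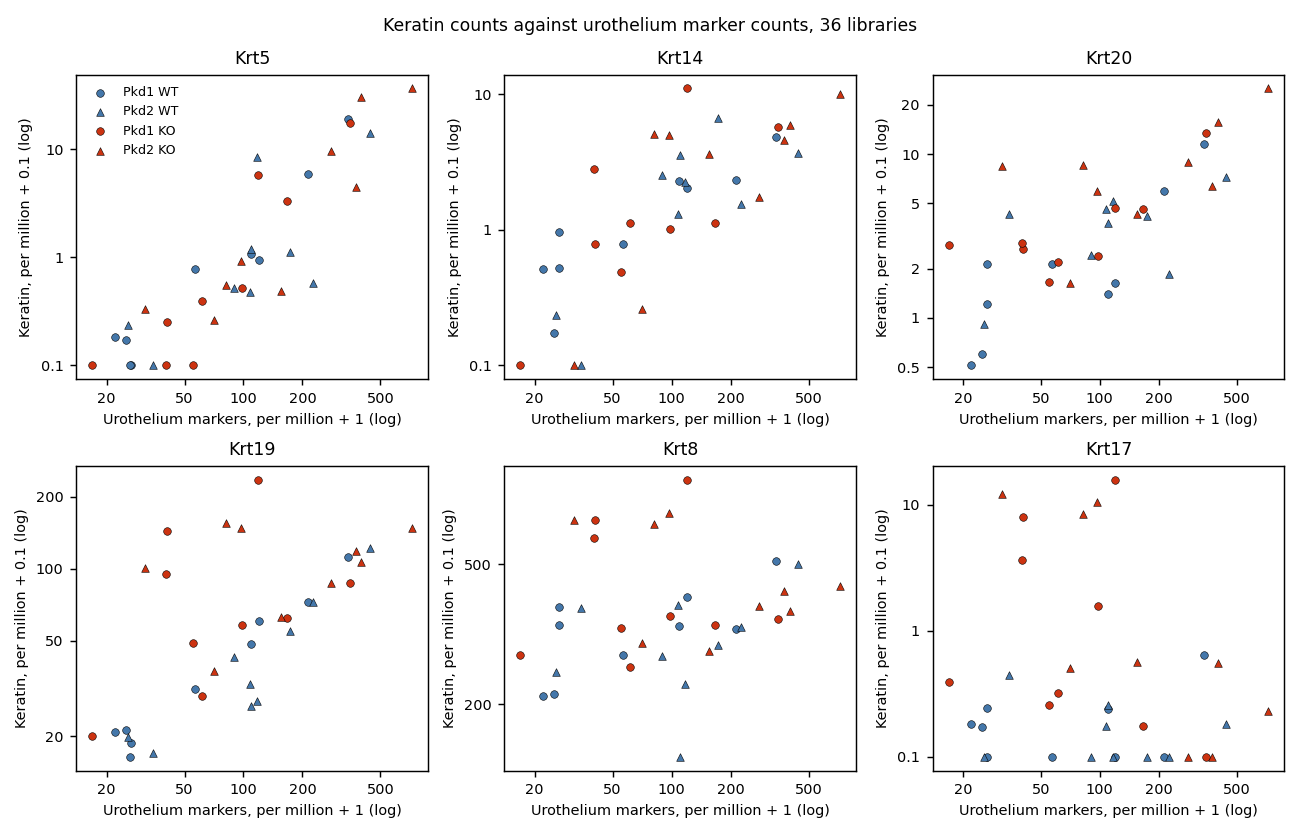
CPM of 6 keratins against the summed CPM of 7 urothelium markers in the 36 libraries, on log axes with 0.1 and 1 added. Krt5, Krt14 and Krt20 follow the markers, and Krt19 follows them apart from 6 KO libraries that lie above the rest. Krt17, low outside the KO libraries at P7, does not follow them.

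The ratio of type I to type II keratin was higher in KO than in WT kidneys at P7 in the group means. Krt18 stood at 0.52, 0.63 and 0.51 of the Krt8 level per kb in WT kidneys of the Pkd1 model at P7 and at 1.01, 1.13 and 0.89 in KO. Among Pkd2 kidneys at P7 the ratio was 0.52, 0.40 and 0.78 in WT and 0.72, 0.81 and 0.87 in KO. KO and WT did not overlap in the Pkd1 model, while WT replicate 3 reached into the KO range in the Pkd2 model.

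At P1 the Krt18 to Krt8 ratio was 0.91 ± 0.05 in WT and 0.92 ± 0.15 in KO of the Pkd1 model (SD, n = 3) and 0.78 ± 0.04 and 0.88 ± 0.03 in the Pkd2 model. Thus the WT ratio was lower at P7 than at P1 in the Pkd1 model, and the KO ratio was near its P1 value. At P3 the ratio was 0.75 ± 0.06 in WT and 0.80 ± 0.05 in KO of the Pkd1 model, and 0.69 ± 0.07 and 0.83 ± 0.07 in the Pkd2 model. The Krt19 to Krt8 ratio per kb at P7 was 0.11 ± 0.07 in WT and 0.28 ± 0.07 in KO of the Pkd1 model, and 0.16 ± 0.14 and 0.26 ± 0.06 in the Pkd2 model. Krt7, which like Krt8 is type II, kept a ratio to Krt8 of 0.97 ± 0.12 and 1.04 ± 0.04 in the Pkd1 model and 0.86 ± 0.06 and 0.95 ± 0.11 in the Pkd2 model.

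Summed over Krt5, Krt7 and Krt8 as type II and the other 7 as type I, the type I to type II ratio per kb at P7 was 0.34 ± 0.07 in WT and 0.65 ± 0.07 in KO of the Pkd1 model (SD, n = 3). For Pkd2 mice it was 0.41 ± 0.18 and 0.57 ± 0.04. The summed level of the 6 simple keratins per kb was 6609.6 ± 673 in WT and 17520.2 ± 4126 in KO in the Pkd1 model, and 8381 ± 2593 and 15628 ± 1338 in the Pkd2 model. These sums and ratios were not tested, since they are scores over the chosen genes.

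**Figure D5:**
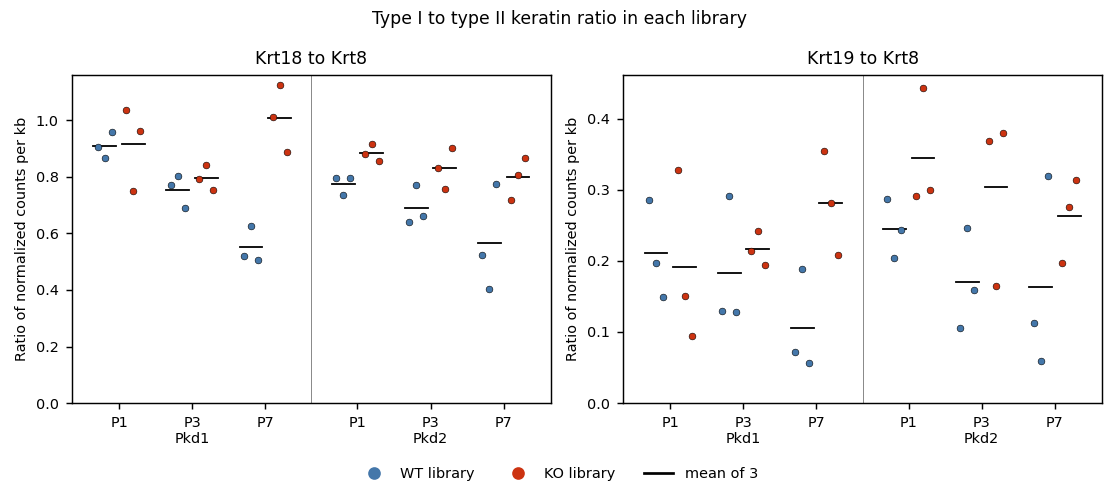
Ratio of Krt18 to Krt8 and of Krt19 to Krt8, as normalized counts per kb, in each library by model and day, with a bar at the mean of 3. For Pkd1 mice the WT ratio of Krt18 to Krt8 declines from 0.91 at P1 to 0.55 at P7 in the group means, and the KO ratio at P7 is 1.01.

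At P3 no member was called in either model. Among Pkd2 kidneys the 4 abundant simple keratins were nevertheless higher in all 3 KO libraries than in all 3 WT libraries. Krt18 had 1629, 1130 and 1556 normalized counts in WT and 3643, 2347 and 3387 in KO, a log2 difference of 1.13 (SE 0.20, adjusted p = 0.937, edgeR). Krt19 had 264, 357 and 371 in WT and 1598, 503 and 1407 in KO, a log2 difference of 1.83 (SE 0.41, adjusted p = 0.939). The log2 difference was 0.83 (SE 0.22, adjusted p = 0.939) for Krt8 and 0.62 (SE 0.18, adjusted p = 0.939) for Krt7.

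Krt23 and Krt15 also had every KO library above every WT library in the Pkd2 model at P3, so 6 of 10 members did, against 4.62% of all transcripts. By edgeR's quasi-likelihood test 0.0% of 12632 transcripts were called there, 6 members and 565 transcripts had an unadjusted p under 0.05, and DESeq2 called 3 members and edgeR's exact test 2. The summed urothelium markers were also higher in these KO libraries, at 69.6 to 399 CPM against 24.7 to 116 in WT, and with the marker covariate Krt19 differed by 0.68 (adjusted p = 0.58) and Krt18 by 0.68 (adjusted p = 0.573).

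Among Pkd1 kidneys at P3 the test called 0.00798% of 12527 transcripts, 1 in all and none of them a member. Krt8 had 2685, 4171 and 2727 normalized counts in WT and 4577, 4261 and 4231 in KO and was the single member with every KO library above every WT library, against 10.3% of all transcripts. Its log2 difference was 0.44 (SE 0.16, adjusted p = 0.266, edgeR). Krt18 differed by 0.51 (adjusted p = 0.290) and Krt17 by 3.27, and with Krt8 these were the 3 members of 1748 transcripts at an unadjusted p under 0.05. DESeq2 and edgeR's exact test called 0 members. WT replicate 2 held the highest Krt8, Krt18 and Krt19 and the most urothelium marker counts of its group, 212 CPM, and without it 3 members, Krt19, Krt18 and Krt8, were called. Taking out the WT library with the highest values widens the difference, so these calls add no support.

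At P1 no member was called in either model, where 0.0% of 12526 transcripts in the Pkd1 model and 0.0% of 12633 in the Pkd2 model passed edgeR's quasi-likelihood test. For Pkd1 mice the KO values of the abundant simple keratins were lower in the mean, with log2 differences of −0.41 for Krt7, −0.42 for Krt8, −0.38 for Krt18 and −0.57 for Krt19, all at adjusted p = 1.0. Same-numbered KO and WT libraries deviated together here, and with the replicate number as a block Krt7 differed by −0.42 (SE 0.06, adjusted p = 0.0502, edgeR) and Krt19 by −0.66 (SE 0.12, adjusted p = 0.135), both lower in KO in 3 of 3 pairs, and 4 of all transcripts were called. Without the block none of the 10 and 157 of all transcripts had an unadjusted p under 0.05. For Pkd2 mice the differences were 0.27 for Krt7, 0.30 for Krt8, 0.48 for Krt18 and 0.81 for Krt19 (adjusted p 0.864 to 0.884), and 4 members and 708 transcripts had an unadjusted p under 0.05. These 4 were Krt18, Krt19, Krt20 and Krt5. DESeq2 and edgeR's exact test called 0 members at P1 in either model.

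Krt20 in the Pkd2 model at P1 had 23.4, 30.6 and 54.2 normalized counts in WT and 55.6, 335 and 119 in KO (log2 difference 2.24, SE 0.63, adjusted p = 0.854, edgeR). Krt5 differed by 4.60 (SE 1.27, adjusted p = 0.854). KO replicate 2, with the highest Krt20 and Krt5 of the 36 libraries, also held the most urothelium marker counts, 725 CPM. With the marker covariate the differences were 1.32 for Krt20 and 1.20 for Krt5, both at adjusted p = 1.0.

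Whether the KO difference grew between P1 and P7 was tested as an interaction. Among Pkd1 kidneys it did for 4 members, against 7.75% of 12527 transcripts. The log2 difference at P7 exceeded that at P1 by 1.57 for Krt7 (SE 0.29, adjusted p = 0.00619, edgeR), 1.48 for Krt8 (SE 0.28, adjusted p = 0.00692), 2.32 for Krt18 (SE 0.35, adjusted p = 0.00199) and 3.12 for Krt19 (SE 0.85, adjusted p = 0.0349). The Krt19 call was lost in 5 of 12 fits that left out a library (P1 WT replicate 1, P1 KO replicate 2, P7 WT replicate 1, P7 KO replicate 1 or 2). For Krt17 the P7 difference exceeded that at P1 by 6.64 (SE 2.01, adjusted p = 0.0525). DESeq2 called Krt17 (6.75, adjusted p = 0.00297), and with the Y-linked covariate its edgeR value was −2.6 (SE 7.59, adjusted p = 0.981). With the Y-linked covariate 0 members and 0 transcripts were called, at differences of 1.28 for Krt7, 1.55 for Krt8, 2.23 for Krt18 and 2.73 for Krt19 (adjusted p 0.745 to 0.88). Of the Pkd1 libraries at P1, 2 WT and 0 KO held Y-linked counts, and this covariate rests on P1 WT replicate 2.

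Among Pkd2 kidneys 0 of 10 members were called in the same interaction, against 1.3% of 12633 transcripts, and DESeq2 called 0. Krt7 (0.58, SE 0.27) and Krt5 (−7.76, SE 2.70, adjusted p = 0.179) had an unadjusted p under 0.05, 2 members of 1954 transcripts. The differences were 0.42 for Krt8 (SE 0.27), 0.67 for Krt18 (SE 0.38) and 0.46 for Krt19 (SE 0.77). With the urothelium marker covariate Krt5 differed by 0.15 (SE 1.36), and Krt19 was called with 2.08 (SE 0.31, adjusted p = 0.00504, edgeR), 1 of 131 transcripts called. With the Y-linked covariate no member was called, and Krt19 differed by 1.52 (SE 0.72, adjusted p = 0.361). Y-linked counts were held by 1 WT and 0 KO libraries at P1 and by 2 WT and 3 KO libraries at P7.

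The KO differences at P7 were also set against each other between the models. None of 10 members was called, and 0.0% of 12342 transcripts tested in both were. The Pkd1 difference exceeded the Pkd2 difference by 0.81 for Krt18 (SE 0.39, adjusted p = 0.312, edgeR), 0.37 for Krt8 (SE 0.20), 0.33 for Krt7 (SE 0.26), 1.30 for Krt19 (SE 0.86) and 0.67 for Krt17 (SE 1.17). With the urothelium marker covariate the value was 0.01 for Krt19 (SE 0.27) and 0.31 for Krt18 (SE 0.23). With the Y-linked covariate it was 2.40 for Krt19 (SE 0.69, adjusted p = 0.203, edgeR) and 1.47 for Krt18 (SE 0.28, adjusted p = 0.123). Of the P7 groups only Pkd2 WT was mixed in Y-linked counts, so that covariate rests on its replicate 3. That library also held the most urothelium markers of its group, and the fit cannot separate sex from genotype in the Pkd1 model. None of the members and 2130 of all transcripts had an unadjusted p under 0.05, and DESeq2 called 0 members and 406 transcripts. These errors do not show that the models had equal differences.

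Between P1 and P7 in WT kidneys, 2 members were called among Pkd1 mice and 1 among Pkd2 mice. Krt23 fell in both models, from 378 ± 43.1 at P1 to 50.7 ± 36.1 normalized counts at P7 in the Pkd1 model (log2 difference −2.89, SE 0.43, adjusted p = 0.00208, edgeR) and from 392 ± 117 to 102 ± 92.0 in the Pkd2 model (−1.96, SE 0.53, adjusted p = 0.0331). Krt18 fell in the Pkd1 model, from 3601 ± 938 to 1922 ± 168 (−0.90, SE 0.23, adjusted p = 0.0216), and differed by 0.09 in the Pkd2 model (adjusted p = 0.871). The summed urothelium markers in Pkd1 WT were 172 ± 150.0 CPM at P1 and 53.3 ± 48.0 at P7, and with the marker covariate the Krt18 difference was −0.52 (SE 0.13, adjusted p = 0.0246, edgeR). These were 2 of 10 members against 17.9% of 12527 transcripts in the Pkd1 model and 1 of 10 against 19.2% of 12633 in the Pkd2 model, shares near or below the background. Krt8 differed by −0.19 and 0.49 and Krt7 by 0.11 and 0.22 in the Pkd1 and Pkd2 models, without a call.

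Krt23 was lower at P7 than at P1 in KO kidneys too, at 405 ± 78.1 and 74.4 ± 43.2 normalized counts in the Pkd1 model and 341 ± 10.8 and 79.1 ± 34.2 in the Pkd2 model (SD, n = 3). At no day was Krt23 called between KO and WT. In WT the Krt23 call held in all 6 fits that left out a library in the Pkd1 model and was lost in 4 of 6 in the Pkd2 model, those without P1 replicate 2 or 3 or P7 replicate 1 or 2. The Krt18 call in Pkd1 WT was lost in 3 of 6, those without P1 replicate 1 or 2 or P7 replicate 1. Y-linked counts were held by 2 of 3 WT libraries at P1 and 0 of 3 at P7 in the Pkd1 model, and by 1 of 3 and 2 of 3 in the Pkd2 model, and their part in these WT differences was not tested.

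Of the 43 other keratins, 9 passed the filter among Pkd1 and 8 among Pkd2 libraries, and Krt80 alone was called at P7 in both models. These are 1 of 9 and 1 of 8, near the 13.5% and 14.1% of all transcripts called. Krt80, a type II keratin of differentiating epithelia, had 84.7 ± 31.4 normalized counts in WT and 199.9 ± 23.5 in KO of the Pkd1 model (log2 difference 1.25, SE 0.30, adjusted p = 0.0344, edgeR). For Pkd2 mice it had 169.6 ± 90.6 and 530.2 ± 154 (1.65, SE 0.37, adjusted p = 0.0244). At P3 its log2 difference was 2.42 (Pkd1) and 2.09 (Pkd2), and the adjusted p was 0.0843 and 0.356 (edgeR). Every KO library lay above every WT library, as it did for 10.3% and 4.62% of all transcripts.

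The desmosome is a junction between cells to which keratin filaments attach. Of 18 desmosome and plakin genes 12 were tested at P7 and 0 were called in either model, with a median log2 difference of 0.03 and 0.05. Of all transcripts 13.5% (Pkd1) and 14.1% (Pkd2) were called. Dsp, which encodes desmoplakin, the protein that ties keratins to the desmosome, differed by −0.09 (SE 0.25) and 0.34 (SE 0.20).

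Of 14 other intermediate filament genes 10 were tested at P7, and 2 were called upward among Pkd1 mice and 5 among Pkd2 mice, against 6.32% and 7.89% of all transcripts called upward. Lmna, which encodes the nuclear lamins A and C, rose by 1.11 (SE 0.25, adjusted p = 0.0298, edgeR) and 0.80 (SE 0.10, adjusted p = 0.00325). Des, the muscle filament desmin, rose by 0.71 (adjusted p = 0.0236) and 0.62 (adjusted p = 0.019). Vim, the mesenchymal filament vimentin, rose by 0.65 in the Pkd2 model (SE 0.07, adjusted p = 0.00168) and differed by 0.36 in the Pkd1 model (adjusted p = 0.0868).

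Of 14 epithelial transcription factors 9 were tested at P7, where 13.5% (Pkd1) and 14.1% (Pkd2) of all transcripts were called. Among Pkd2 kidneys Sox9, a factor of ductal and repairing epithelium, rose by 1.16 (SE 0.26, adjusted p = 0.026, edgeR) and Ovol1 fell by 0.68 (SE 0.10, adjusted p = 0.00488). For Pkd1 mice 0 were called, with Sox9 at 0.88 (adjusted p = 0.122) and Ovol1 at −0.44 (adjusted p = 0.144). No gene of these lists was called at P1 or P3.

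Markers of cell types moved at P7 beside the keratins. The share of all transcripts called there in either direction was 13.5% (Pkd1) and 14.1% (Pkd2). All 6 intercalated cell markers (Foxi1, Atp6v1g3, Atp6v0d2, Slc4a1, Slc26a4 and Atp6v1b1) fell in both models (median log2 difference −0.92 in Pkd1 and −0.64 in Pkd2), and 5 and 6 of 7 proximal tubule markers fell (median −1.17 and −0.70). Of 5 principal cell markers tested, Aqp2, the water channel of the collecting duct, fell by 2.27 (SE 0.57, adjusted p = 0.038, edgeR) and 2.38 (SE 0.46, adjusted p = 0.0152), and Aqp3 fell by 1.19 (adjusted p = 0.00675) and 0.87 (adjusted p = 0.000754). In the Pkd1 model Scnn1g was also called lower and Gata3, a transcription factor of the collecting duct, was called higher (0.67, SE 0.18, adjusted p = 0.045, edgeR), with 1 of the 5 not called. In the Pkd2 model Hsd11b2 was also called lower, and 2 of the 5 were not called. Of 7 urothelium markers Upk3b was called upward in the Pkd1 model (1.73, SE 0.44, adjusted p = 0.0394) and none in the Pkd2 model, and of 6 epidermis markers tested 0 were called. The part that cell composition has in the keratin levels was not tested.

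Across all 36 libraries, likeness was described by Pearson's r of log2 normalized counts among 11921 genes. Among the 5 genes most like Krt8 were Krt7 (r = 0.94), Sfn (0.93), Hebp2 (0.92) and Cldn4 (0.91), of which Cldn4 encodes a tight junction claudin. Those most like Krt19 were Krt18 (0.89), S100a6 (0.88), Rab15 (0.88), Macc1 (0.88) and Krt4 (0.88). Among the 5 most like Krt17 were Ankrd1 (0.91), Mxra7 (0.87), Wnt7a (0.87) and Rnd3 (0.87), where Wnt7a encodes a secreted Wnt ligand and Rnd3 a small GTPase. The libraries share days and genotypes, so these values describe shared patterns over the groups. Those of Krt17 rest mainly on the KO libraries at P7.

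Among the members themselves, Krt8 and Krt18 had r = 0.91 and Krt7 and Krt18 r = 0.87 over the 36 libraries. Krt23 and Krt15 had r = 0.82. Krt5 had r = 0.73 with Krt20 and r = 0.69 with its partner Krt14. Krt17 went with Krt7 and Krt8 (r = 0.72 for each) and not with Krt5 (r = −0.14) or Krt14 (r = 0.04), although it is grouped with these as a basal keratin. Its counts reached 10 only in KO libraries, of the Pkd1 model at P3 and P7 and of the Pkd2 model at P7. These values of r for Krt17 therefore rest mainly on the KO libraries at P7.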

How the data were processed

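Total RNA of whole kidneys was sequenced on an Illumina HiSeq. The authors converted base calls with CASAVA 1.8.2, mapped the reads to mm10 with TopHat2 2.1.0 and counted them per RefSeq transcript with HTSeq at default options, and the deposited values are these raw read counts. Whether counting used strand is not stated. The table has 29996 rows, of which 28974 were paired with a symbol, and 36 columns, each matched by its name to a sample.

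A transcript was tested when 3 or more of the 18 libraries per model held at least 10 counts, which all 10 keratins met in both models. KO and WT were compared within a model and day by edgeR's quasi-likelihood test with TMM factors, Benjamini-Hochberg adjustment over all transcripts and a threshold of 0.05. Changes of the KO difference between days or models were tested as interactions. The standard error is the log2 difference over the square root of F. Normalized counts are TMM-scaled within a model, and values per kb use the exon bases of each transcript (GENCODE exons within the RefSeq bounds), which bears only on comparisons between genes. Relations with the urothelium markers used log2 CPM with 1 added to the marker sum and 0.1 to the keratin, and 100000 permutations. The steps were tested on simulated data. Tests ran in R 4.3.3 (edgeR 4.0.16, DESeq2 1.42.0), and summaries and figures in Python 3.11.15 with pandas 2.3.3 and with matplotlib 3.10.9.

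The named genes are the 10 keratins, other keratins called at P7 in either model or at an unadjusted p under 0.05 at P3 in both, up to 3 called genes per list, those called in both models, the deleted genes and the 5 genes most like Krt8, Krt19 and Krt17. Lrp2, Slc34a1 and Dsp were named after their values were seen. Some genes that these rules name are not reported here. The keratins and the gene lists were chosen with earlier results of these data known. Alternatives were DESeq2, edgeR's exact test, RLE factors, other filters, transcripts summed per gene, a replicate block, all 18 libraries in one fit, a Y-linked covariate, a 2-fold minimum, leaving out each library and, added after the data were seen, a urothelium marker covariate.

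Replicate numbers come from the labels, and litters are not given. Same-numbered KO and WT libraries deviated together in the Pkd1 model at P1 alone, with correlations of 0.33, 0.18 and 0.49, and the block changed no keratin call there. The edgeR p-values set a difference between groups against the spread between libraries within groups. Promoter sequences come from RefSeq, which held 7 of the 10 members in the table used here.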

Additional observations from a re-analysis of the deposited data

Results flagged for a closer look

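The KO difference of 4 simple keratins in the Pkd1 model was larger at P7 than at P1 by a test of the interaction. On the log2 scale the excess was 1.572 for Krt7, 1.485 for Krt8, 2.324 for Krt18 and 3.121 for Krt19. Krt7, Krt8, Krt18 and Krt19 each had a KO mean below the WT mean at P1 and above it at P7. The P7 side of this contrast holds Y-linked counts in 3 KO and 0 WT libraries and the P1 side in 0 KO and 2 WT libraries, and with Y-linked counts as a covariate the excess was 1.28, 1.55, 2.23 and 2.73 without a call. That covariate rests on P1 WT replicate 2, so sex and genotype cannot be told apart in this contrast of the Pkd1 model. No other keratin result was marked, and groups of 3 libraries are too small to single out a library.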

How the results depend on the processing

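No log2 difference of a called keratin changed its sign under any alternative run. Beside the fits that left out a library, Krt7, Krt8, Krt18 and Krt19 of the Pkd1 model at P7 were each called in 10 of 11 fits and Krt17 in 9 of 10, and Krt18 of the Pkd2 model at P7 in 11 of 11 (log2 difference 1.14 to 1.45). The number of keratins called moved by more than 1.5 times in these cases. In the Pkd1 model at P7 the Y-linked covariate gave 0 instead of 5, and in the Pkd1 interaction of P7 with P1 it gave 0 instead of 4. In the Pkd2 model a 2-fold minimum at P7 gave 2 instead of 4, DESeq2 gave 3 and edgeR's exact test 2 instead of 0 at P3, the urothelium marker covariate gave 1 instead of 0 in the interaction, and DESeq2 gave 2 instead of 1 between WT at P7 and P1. The cause was not tested.

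With each library left out in turn, the calls ranged from 2 to 6 in the Pkd1 model at P7 (2 without WT replicate 1), from 2 to 5 in the Pkd2 model at P7 (2 without WT replicate 1), from 0 to 3 in the Pkd1 model at P3 (3 without WT replicate 2), from 3 to 5 in the Pkd1 interaction, from 1 to 3 for WT of the Pkd1 model and from 0 to 2 for WT of the Pkd2 model, and were 0 in the other comparisons.

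The replicate block gave 3 instead of 2 calls for WT of the Pkd1 model, where Krt19 joined, and left the other counts of keratin calls as they were (5 and 4 at P7, 4 in the Pkd1 interaction, 1 for WT of the Pkd2 model and 0 elsewhere). Outside the Pkd1 model at P1 the correlations of same-numbered libraries ran from −0.18 to 0.14, so the number is not taken as a pairing there. The exact test was not run for the interactions. With 10 counts required in every library Krt17 was not tested. DESeq2 and the exact test called 248 and 209 transcripts in the Pkd1 model at P3, 0 of them keratin members, and 38 and 18 in the Pkd2 model at P3. Depth limits Krt5, Krt14, Krt15, Krt17 and Krt20, which had low counts in most WT libraries.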
